A study of Mus musculus with 4 samples.

Results

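The 34 genes described here act in cholesterol synthesis, uptake and efflux and were followed in leukocytes of mouse fibrosarcomas, where 31053 features were measured. They were taken from a fixed list of symbols, and all 34 were found in each library. Of these, 18 encode enzymes of synthesis (Hmgcs1, Mvk, Pmvk, Mvd, Idi1, Fdps, Ggps1, Fdft1, Sqle, Lss, Cyp51, Msmo1, Nsdhl, Hsd17b7, Ebp, Sc5d, Dhcr7 and Acat2). A further 4 encode regulators of synthesis (Insig1, Srebf1, Srebf2 and Scap), and 12 act in uptake, storage or efflux (Cd36, Msr1, Scarb1, Lipa, Npc1, Npc2, Stard4, Soat1, Abca1, Abcg1, Apoe and Mylip).

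Live CD45+ cells, that is leukocytes, were sorted on day 11 after implantation from tumours that are Raldh1/3 double knockout (DKO) or Cas9 control, and their RNA was counted cell by cell with 10x 3′ v3 chemistry. Raldh1 and Raldh3, encoded by Aldh1a1 and Aldh1a3, are enzymes that make retinoic acid. Each group had 2 libraries, each a pool of 2 tumours, and tumours of both groups were otherwise untreated. The study asks how tumour-derived retinoic acid bears on the differentiation of monocytes, but the guides, the number of clones, and the strain and age of the mice are not given in the sources used here. Values of single libraries are given in the order control 1, control 2, DKO 1, DKO 2.

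The files held 9206, 8668, 7201 and 5429 barcodes with 80032966, 74878771, 71381613 and 57458026 counted molecules (UMIs), and 7638, 7417, 6178 and 4647 cells stayed after filtering. Pairs of libraries shared between 20 and 38 barcodes. In the cells kept, Aldh1a1 had 1, 0, 0 and 1 UMIs and Aldh1a3 28, 9, 10 and 24, so the sort left too little tumour RNA to check the knockout. Ptprc, which encodes CD45, was at 673 to 936 counts per 1000000 UMIs (CPM) in the libraries. Cells were assigned to classes by marker genes, and 7 groups with at least 50 cells in each library were tested: monocyte/macrophage-like, dendritic-like, T-like, NK-like and neutrophil-like cells and the unnamed clusters 13 (led by Cd4, with Cd40lg) and 14 (led by Foxp3). Unnamed cluster 0, led by Gm42418, also reached this number (528, 249, 197 and 222 cells). It was left out as an unnamed cluster with Cd3e in under 50% of its cells (1.42%). Its median depth was 0.151 of the library median. CPM values are of UMIs summed over the cells of a class in a library, so that the library is the replicate. Each change is a log2 value of DKO over control with its standard error, from edgeR's quasi-likelihood test over all genes of the class with Benjamini-Hochberg adjusted p-values. A gene passed the test at an adjusted p under 0.05. With 2 libraries against 2, an exact permutation test of a single value cannot go below p = 0.333. The labels do not say that the libraries came from separate experiments, so the p-values measure the spread between these libraries.

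As background, cells make cholesterol from acetyl units by the mevalonate pathway. SREBP2, the product of Srebf2, is carried by SCAP to the Golgi when membrane sterol is low, and its released fragment switches on the synthesis enzymes. INSIG proteins hold SCAP back when sterol is high. Macrophages also take up lipoproteins and dying cells, release the cholesterol in lysosomes through Lipa, Npc1 and Npc2, store it as ester through Soat1, and export it through the transporters Abca1 and Abcg1 to carriers such as Apoe. Abca1, Abcg1, Apoe and Mylip are textbook targets of LXR, a sterol-sensing receptor that works as a pair with the retinoid X receptor. Mylip encodes a ligase that marks lipoprotein receptors for degradation.

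The change of 4 synthesis genes, Hmgcs1, Mvd, Cyp51 and Fdps, differed between the dendritic-like and the monocyte/macrophage-like cells, as described further on. For this reason the 250 bases before the start of transcription are shown for Hmgcs1, Mvd and Cyp51, while Fdps was not matched in the table of promoters. Sequences are from RefSeq on GRCm38.p6 and run 5′ to 3′ on the strand of the gene. Hmgcs1 lies on the plus strand (chr13:119690101-119690350 for the bases shown), and Mvd (chr8:122443423-122443672) and Cyp51 (chr5:4104698-4104947) lie on the minus strand. Capitals mark the letters TCACNCCAC, a form of the sterol response element that SREBP binds, and CCAAT, the letters bound by NF-Y, each on either strand. Only Hmgcs1 met the rule of holding TCACNCCAC, and Mvd and Cyp51 were added after their values were seen.
Hmgcs1: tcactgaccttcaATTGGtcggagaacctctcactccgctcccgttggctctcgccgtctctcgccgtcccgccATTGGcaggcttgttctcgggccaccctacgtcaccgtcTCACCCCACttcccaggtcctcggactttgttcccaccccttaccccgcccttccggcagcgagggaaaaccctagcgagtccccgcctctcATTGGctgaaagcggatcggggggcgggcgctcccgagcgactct
Mvd: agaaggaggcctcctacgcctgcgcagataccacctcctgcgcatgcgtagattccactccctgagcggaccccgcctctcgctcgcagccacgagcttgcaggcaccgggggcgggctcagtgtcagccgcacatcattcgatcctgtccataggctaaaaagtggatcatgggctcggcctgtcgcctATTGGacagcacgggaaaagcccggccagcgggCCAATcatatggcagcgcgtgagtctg
Cyp51: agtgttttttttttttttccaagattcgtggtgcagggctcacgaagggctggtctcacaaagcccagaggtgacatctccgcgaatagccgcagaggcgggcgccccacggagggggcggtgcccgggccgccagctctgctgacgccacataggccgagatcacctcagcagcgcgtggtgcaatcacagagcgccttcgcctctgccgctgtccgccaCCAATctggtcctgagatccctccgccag

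In Hmgcs1 the TCACNCCAC match starts 137 bases before the start of transcription, with CCAAT matches at 237, 176 and 45 bases before it. Mvd holds CCAAT at 60 and 27 bases before the start and Cyp51 at 29. These distances are from the RefSeq starts, which differ from GENCODE for Hmgcs1 and Cyp51. GENCODE places the Cyp51 start at 4104746, so its CCAAT match lies inside the gene as placed there. The Hmgcs1 start is at 119690379 in GENCODE. The table matched 26 of the 34 genes and 15 of the 18 synthesis genes. CCAAT was in a promoter of 14 of these 15 synthesis genes, of 22 of the 26 matched genes, and in 33.8% of all 32851 promoters of that length. A gene was counted if any of its promoters in the table held the letters, while the percentages are of single promoters, so the scales differ. CACGTG, the E-box letters, was in 3 of 15 (Hsd17b7, Dhcr7 and Sc5d), in 6 of 26 and in 6.02% of all promoters. TCACNCCAC was in 1 of 15, in 1 of 26 and in 1.05% of all promoters. The matches in the sequences shown do not overlap each other. A match is a description of letters and not a measured site.

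The classes differed in how much of these transcripts they held, which is given as a description. The summed level of the 18 synthesis genes averaged 740 CPM in dendritic-like cells (602 to 941 over the 4 libraries) and 635 CPM in monocyte/macrophage-like cells (437 to 802), so these leading classes overlapped. Cluster 14 followed at 530 CPM (496 to 578), cluster 13 at 401 CPM (385 to 411), T-like cells at 331 CPM (321 to 349), NK-like cells at 265 CPM (238.1 to 306) and neutrophil-like cells at 179 CPM (162 to 193). None of the ranges from cluster 14 down overlapped its neighbour. Among single genes, Pmvk, the phosphomevalonate kinase, was at 161 CPM in dendritic-like cells (97.7 to 193) and next at 58.5 CPM in monocyte/macrophage-like cells (48.1 to 64.2). The scavenger receptor gene Msr1 was at 454 CPM in monocyte/macrophage-like cells (438 to 474) and next at 34.3 CPM in neutrophil-like cells (5.66 to 68.2). Apoe averaged 5326 CPM in monocyte/macrophage-like cells (4126 to 6202) and 352 CPM in neutrophil-like cells (278 to 451), the next class. Mylip was at 125 CPM in neutrophil-like cells (59.0 to 187), which overlapped the NK-like cells at 60.8 CPM (44.2 to 90.1).

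In monocyte/macrophage-like cells (4558, 4947, 3163 and 2172 cells), the question was whether cholesterol genes differed between leukocytes of DKO and control tumours. Here 17 of the 18 synthesis genes had a log2 value above 0, with a median of 0.44, but none of the 34 genes passed the test. Over the 13023 genes tested, 0.00768% passed, 51.2% had a log2 value above 0, and the median was 0.01. The DKO libraries were both above both controls for 8 of the 18 synthesis genes and both below for 1, where 21.5% and 18.5% of all genes were. Unadjusted p was under 0.05 and higher for 2 of the 18, against 4.3% of all genes. All members were above the filter on low counts in this class.

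Of the mevalonate and isoprenoid steps, Hmgcs1, which encodes the synthase that makes HMG-CoA (chr13:119690379-119708260, GRCm38), was at 76.3 and 41.8 CPM in the control libraries and 86.0 and 105.8 CPM in DKO. Both DKO libraries lay above both controls, with control 2 far below the rest. The change was log2 0.67 ± 0.27 (edgeR quasi-likelihood test, adjusted p = 0.568). Mvk, the mevalonate kinase, was at 13.8, 10.2, 14.8 and 16.4 CPM (log2 0.34). Pmvk was at 59.6, 48.1, 64.2 and 62.3 CPM (log2 0.20). Like Hmgcs1, both kinases had their lowest value in control 2 and no overlap between groups. The decarboxylase gene Mvd was at 29.4, 19.5, 25.4 and 37.4 CPM (log2 0.33). The isomerase gene Idi1 was at 49.2, 24.9, 44.4 and 67.7 CPM (log2 0.57). For both, DKO 1 lay between the controls and DKO 2 above them. Fdps, which encodes farnesyl diphosphate synthase, was at 43.1, 34.5, 43.8 and 45.3 CPM (log2 0.17), and Ggps1, at the branch to geranylgeranyl groups, at 20.3, 18.04, 20.3 and 21.4 CPM (log2 0.09). These were the smallest positive values of the synthesis genes. The acetyl-CoA acetyltransferase gene Acat2 was at 6.9, 3.7, 8.0 and 8.4 CPM (log2 0.61) and has a near copy, Acat3, that could share reads.

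Of the squalene steps, the squalene synthase gene Fdft1 was at 26.8, 15.8, 24.7 and 32.0 CPM (log2 0.38). Sqle, which encodes squalene epoxidase, was at 31.0, 16.5, 28.2 and 42.1 CPM (log2 0.54). The cyclase gene Lss was at 9.2, 4.2, 7.8 and 10.8 CPM (log2 0.45). In all 3, control 2 was lowest and DKO 2 highest, and control 1 lay above DKO 1, so the groups overlapped. Of the late sterol steps, the demethylase gene Cyp51 was at 74.8, 39.9, 62.4 and 90.1 CPM (log2 0.38), with the same order of libraries. Msmo1, the methylsterol monooxygenase, was at 67.5, 41.9, 69.7 and 94.99 CPM (log2 0.56), with no overlap. The dehydrogenase gene Nsdhl was at 12.7, 8.4, 12.7 and 16.1 CPM (log2 0.42), and the reductase gene Hsd17b7 at 13, 6.9, 12.5 and 18.1 CPM (log2 0.59). Both again had control 2 lowest and DKO 2 highest. Sc5d, the sterol desaturase, was at 26.3, 14.6, 26.1 and 37.6 CPM (log2 0.61). Dhcr7, which encodes the last reductase of the pathway, was at 18.1, 11.2, 20.2 and 23.9 CPM (log2 0.56, unadjusted p = 0.0361, adjusted p = 0.529 with edgeR). Ebp, the sterol isomerase, was the 1 synthesis gene below 0, at 76.9, 77.2, 72.6 and 72.0 CPM (log2 -0.13), with the control libraries above both DKO libraries. Cyp51, Fdft1 and Ggps1 overlap Akap9, Ctsb and Arid4b on the other strand, and Fdps overlaps 2 gene models on its own strand.

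The summed level of the synthesis genes was 655, 437, 644 and 802 CPM, with control 2 lowest, control 1 and DKO 1 alike, and DKO 2 highest. Leaving out control 1 gave a median of 0.87 over the 18 log2 values, leaving out control 2 gave 0.18, DKO 1 0.61 and DKO 2 0.26. With 1 library left out, the log2 value ran from 0.33 to 1.12 for Hmgcs1, 0.18 to 1.01 for Sqle, 0.29 to 0.90 for Msmo1 and 0.03 to 0.85 for Cyp51. The summed level of 8 genes of dividing cells was 469, 196, 473 and 336 CPM, also lowest in control 2, and 7 of the 8 were higher in DKO. T cell markers summed to 20.4, 18.5, 27.7 and 23.7 CPM in this class and neutrophil markers to 69.2, 136, 61.9 and 85.8 CPM. The mix of clusters in the class also differed: cluster 3, led by Pf4 and Ccl7, made up 16.5% and 30.1% of its cells in the control libraries and 10.2% and 10.4% in DKO, and cluster 4, led by Igf1 and Apol7c, made up 9.61% and 3.84% against 16.9% and 23.5%. Median depth was 9646, 8891, 11170 and 12700 UMIs per cell. With an equal mix of states in every library the synthesis median was 0.40. The part of dividing cells, of other cells' markers and of depth in the class values was not tested.

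**Figure D1:**
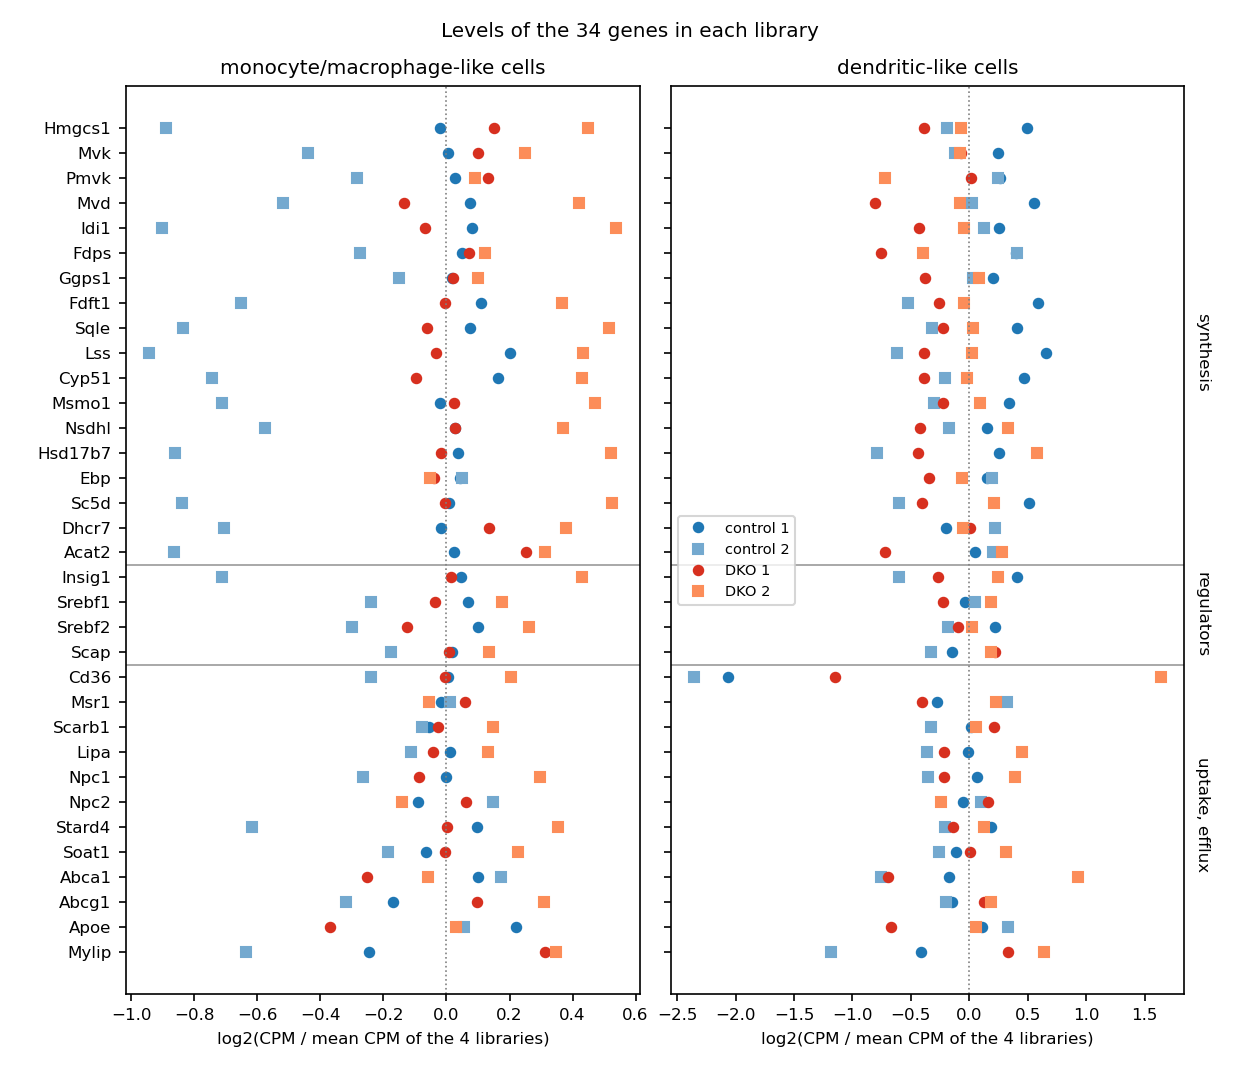
Level of each of the 34 genes in each library, as log2 of CPM over the mean CPM of the 4 libraries, in monocyte/macrophage-like (left) and dendritic-like cells (right). For most synthesis genes control 2 (light blue squares) lies far left of the other 3 libraries in monocyte/macrophage-like cells, and control 1 (blue circles) lies furthest right in dendritic-like cells.

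All 4 regulators had log2 values above 0 in monocyte/macrophage-like cells, with a median of 0.13, and none passed the test. Insig1, a sterol-sensing retention protein that SREBP also induces, was at 59.7, 35.4, 58.5 and 78.0 CPM (log2 0.49), the library order of the synthesis enzymes. Srebf2 was at 70.5, 53.4, 60.2 and 78.8 CPM (log2 0.13). Srebf1, which encodes the SREBP of fatty acid synthesis, was at 34.9, 28.1, 32.4 and 37.5 CPM (log2 0.12), and Scap at 15.8, 13.8, 15.7 and 17.1 CPM (log2 0.12). The groups overlapped for all 4.

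Of the 12 uptake and efflux genes in these cells, 8 had log2 values above 0, with a median of 0.14, and none passed the test. Both DKO libraries were above both controls for 4 of the 12 and below for 2, against 21.5% and 18.5% of all genes. Unadjusted p was under 0.05 for 2 higher and 1 lower, against 4.3% and 4.37%. The uptake receptors differed little: Cd36 was at 22.7, 19.1, 22.5 and 26.0 CPM (log2 0.18), Msr1 at 449, 458, 474 and 438 CPM (log2 -0.03) and the HDL receptor gene Scarb1 at 35.1, 34.5, 35.8 and 40.4 CPM (log2 0.10). The groups overlapped for Cd36 and Msr1. Of the lysosomal genes, the acid lipase gene Lipa was at 76.7, 70.4, 73.8 and 83.3 CPM (log2 0.06), the membrane exporter gene Npc1 at 77.6, 64.7, 73.2 and 95.4 CPM (log2 0.21) and its soluble partner Npc2 at 1320, 1557, 1466 and 1273 CPM (log2 -0.11). The groups overlapped for all 3. The sterol transfer gene Stard4 was at 42.3, 25.8, 39.6 and 50.5 CPM (log2 0.38), again lowest in control 2. Soat1, which encodes the esterifying enzyme, was at 163, 149, 169 and 199 CPM (log2 0.20), without overlap.

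The 4 LXR targets had values on both sides of 0. Mylip (chr13:45389742-45412022) was at 24.0 and 18.3 CPM in the control libraries and 35.4 and 36.3 CPM in DKO. Both DKO libraries were well above both controls and close to each other. The change was log2 0.73 ± 0.13 (unadjusted p = 0.0011, adjusted p = 0.331 with edgeR). The adjusted p was 0.00768 with DESeq2 and 0.0355 with edgeR without the filter on low counts. A crossed pairing (control 1 with DKO 2, control 2 with DKO 1), chosen after the data were seen, gave 0.0769. In the other alternatives on all 4 libraries the adjusted p ran from 0.154 to 0.377. With 1 library left out the log2 value ran from 0.58 to 0.89. Abcg1 (chr17:31057675-31117988), a transporter that loads HDL, was at 55.3 and 49.8 CPM in the control libraries and 66.4 and 76.9 CPM in DKO, without overlap (log2 0.41 ± 0.11, adjusted p = 0.405 with edgeR). Abca1 (chr4:53030787-53159895), which loads lipid-poor apolipoproteins, was at 263 and 276 CPM in the control libraries and 206 and 235 CPM in DKO. Here both DKO libraries were below both controls (log2 -0.33 ± 0.13, adjusted p = 0.567 with edgeR). Apoe (chr7:19696109-19699188) was at 6202 and 5540 CPM in the control libraries and 4126 and 5436 CPM in DKO. DKO 1 was low, while DKO 2 lay just under control 2 (log2 -0.33 ± 0.19, adjusted p = 0.65 with edgeR).

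Other genes of the pathway were followed as 4 lists, in which 0 of 10 tested genes of sterol synthesis and SREBP control, 0 of 9 of the fatty acid arm, 0 of 13 of LXR, lipoproteins and lipid droplets, and 0 of 9 of sterol transfer and oxysterols passed in monocyte/macrophage-like cells. Log2 values were above 0 for 9, 8, 5 and 7 of them, with medians of 0.16, 0.40, -0.09 and 0.10. Scd2, a fatty acid desaturase, was at 171, 73.3, 180 and 314 CPM (log2 0.99), and Fasn, the fatty acid synthase, at 23.1, 13, 23.4 and 28.2 CPM (log2 0.49). Both had the library order of the synthesis enzymes, with control 2 lowest and DKO 2 highest. Lrp1, a receptor for apolipoprotein E remnants, was at 301, 386, 242 and 258 CPM (log2 -0.50), with both DKO libraries lower. Pltp, the phospholipid transfer protein and another LXR target, was at 129, 99.9, 73.5 and 101 CPM (log2 -0.42), and here DKO 2 lay just above control 2.

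In dendritic-like cells (363, 273, 270 and 321 cells), the synthesis genes lay on the other side of 0. Of the 18, 17 had log2 values below 0, with a median of -0.35, where 50.6% of the 9816 genes tested were above 0 and the median was 0.01. No gene of the class passed the test with edgeR (0% of genes), while 7.42% had an unadjusted p under 0.05 and DESeq2 called Fdps. Unadjusted p was under 0.05 and lower for 6 of the 18, against 3.45% of all genes, and both DKO libraries were below both controls for 5, against 14.2%. The summed synthesis level was 941, 748, 602 and 667 CPM, so both controls were above both DKO libraries.

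Fdps (chr3:89093588-89101959) was at 87.1 and 87.4 CPM in the control libraries and 39.0 and 50.02 CPM in DKO. The controls were nearly equal and both DKO libraries lay far below them. The change was log2 -1.04 ± 0.15 (unadjusted p = 9.42e-05, adjusted p = 0.295 with edgeR, 0.0369 with DESeq2). With edgeR its adjusted p was 4.09e-06 without the filter on low counts and 0.231 with a replicate block. It ran from 0.194 to 0.316 with other cell filters or clusterings or in the Cd209a-led cluster alone. In the Ccr7-led cluster alone it was 0.798. The crossed pairing of libraries, chosen after the data were seen, gave 6.38e-09. With 1 library left out the log2 value ran from -1.17 to -0.93. Mvd was at 33.2, 22.9, 12.9 and 21.3 CPM (log2 -0.77), Idi1 at 76.5, 69.9, 47.6 and 62.2 CPM (log2 -0.48) and Ebp at 75.4, 77.7, 53.3 and 65.2 CPM (log2 -0.44). All 3 were lower in both DKO libraries than in either control. Pmvk was at 193, 191, 162 and 97.7 CPM (log2 -0.63), lower in DKO 2 than in DKO 1. Hmgcs1 was at 106, 65.7, 57.3 and 71.4 CPM (log2 -0.49) and Cyp51 at 94.2, 58.7, 51.9 and 67.2 CPM (log2 -0.44). For these, control 1 stood above the other 3 libraries, and DKO 2 lay above control 2.

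Of the regulators, Scap was at 17.1, 15.2, 22.2 and 21.6 CPM (log2 0.36), higher in both DKO libraries. Srebf2 was at 138, 104, 110.2 and 120.0 CPM (log2 -0.14), Srebf1 at 24.5, 26.0, 21.5 and 28.7 CPM (log2 -0.07) and Insig1 at 55.3, 27.6, 34.7 and 49.6 CPM (log2 -0.06), all with overlap.

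Of the uptake and efflux genes in dendritic-like cells, 8 of 12 had log2 values above 0, with a median of 0.23, and 2 had an unadjusted p under 0.05 and higher, against 3.96% of all genes. Mylip was at 15.2 and 8.9 CPM in the control libraries and 25.4 and 31.4 CPM in DKO, without overlap (log2 1.13, adjusted p = 0.604 with edgeR). Abcg1 was at 65.3, 63.3, 79.1 and 82.6 CPM (log2 0.26) and Soat1 at 79.2, 71.9, 86.2 and 107 CPM (log2 0.28), both without overlap. Apoe was at 167, 194, 97 and 160 CPM (log2 -0.56). Cd36 was at 1.9, 1.6, 3.6 and 24.8 CPM, where the value of DKO 2 stood alone. The fatty acid carrier gene Fabp5, of the other pathway genes, was at 1323, 1514, 1186 and 792 CPM (log2 -0.58, adjusted p = 0.666 with edgeR). It did not pass, and its log2 value was 0.01 in cluster 18, the larger of the 2 clusters of the class described next. The 14 monocyte/macrophage marker genes summed to 2757, 3074, 2221 and 3661 CPM in this class, with 9 of them higher in DKO, and the 8 genes of dividing cells to 222, 143, 163 and 346 CPM, and their part in these values was not tested.

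The dendritic-like class held cluster 18, led by Cd209a, at 72.7%, 66.3%, 69.6% and 78.2%, and cluster 20, led by Fscn1 and with Ccr7, for the rest. In cluster 18 alone Fdps was at 96.9, 106, 43.8 and 52.2 CPM (log2 -1.13, adjusted p = 0.194 with edgeR), Mvd at log2 -0.91, Cyp51 at -0.53 and Hmgcs1 at -0.38. In cluster 20 alone Hmgcs1 was at 108, 62.0, 29.3 and 56.5 CPM (log2 -1.09, adjusted p = 0.566 with edgeR), Fdps at log2 -0.64 and Mylip at 1.68. Fabp5 was at 399, 411, 452 and 398 CPM in cluster 18 (log2 0.01), with overlap, and at 4783, 4815, 3983 and 3429 CPM in cluster 20 (log2 -0.45), with both DKO libraries lower. The 2 clusters therefore had the same signs for Fdps and Hmgcs1.

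The difference of the change between classes was tested with a class-by-group term, in which each library is its own block. The filter on low counts was applied to both classes together, so genes too low to be tested in 1 of them could enter. The shares over all genes given for these terms include such genes. Between dendritic-like and monocyte/macrophage-like cells 4 synthesis genes passed, where 0.182% of 12625 genes did. Hmgcs1 had a term of log2 -1.15 (edgeR, adjusted p = 0.00193), and it passed in every alternative run, with adjusted p from 1.45e-08 to 0.0179 when a library was left out. Fdps had -1.19 (edgeR, adjusted p = 0.0029), but 0.0555 without control 2, with 8.23e-08 to 0.0126 in the other alternatives. Mvd had -1.10 (edgeR, adjusted p = 0.0283), but 0.35 with DESeq2, 0.169 without control 1 and 0.166 without control 2, with 0.000936 to 0.0468 in the others. Cyp51 had -0.81 (edgeR, adjusted p = 0.0400), but 0.35 with DESeq2, 0.141 without control 1, 0.554 without control 2 and 0.061 without DKO 2, with 7.6e-05 to 0.0468 in the others. The direction is that these transcripts were lower in DKO dendritic-like cells relative to the change in monocyte/macrophage-like cells of the same libraries.

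**Figure D2:**
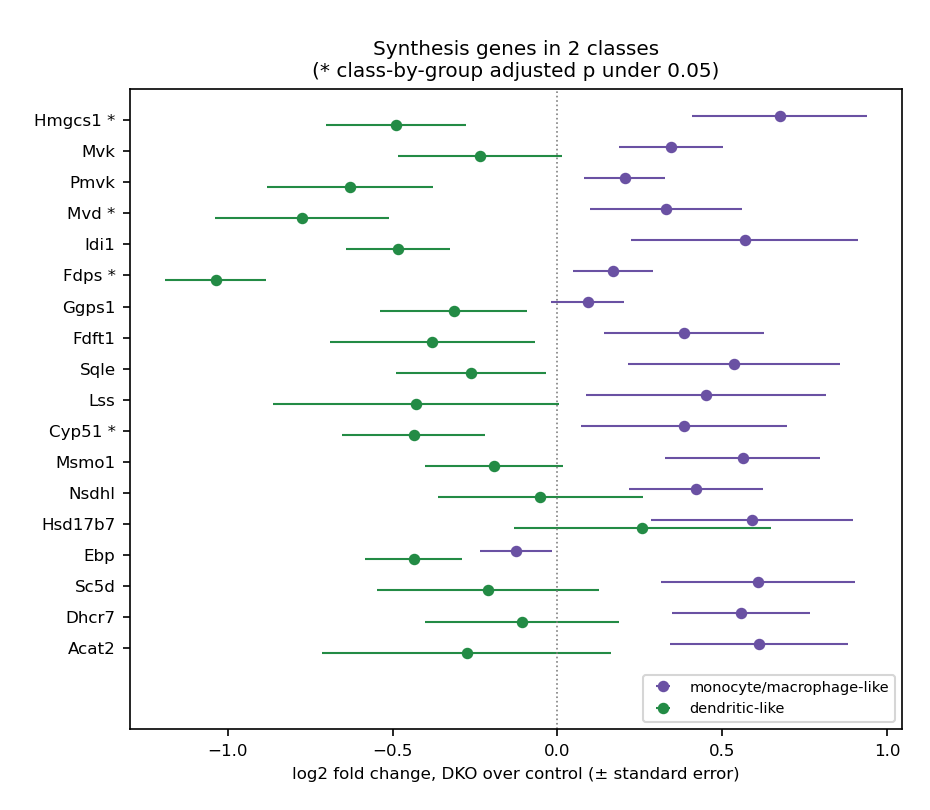
Log2 change (DKO over control, x axis, with standard error bars) of the 18 synthesis genes in monocyte/macrophage-like (purple) and dendritic-like cells (green). Of the purple points 17 lie right of 0 and of the green points 17 lie left, and stars mark Hmgcs1, Mvd, Fdps and Cyp51, whose class-by-group term passed.

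In NK-like cells (355, 370, 385 and 353 cells), Apoe was the 1 member that passed, where 0.0652% of 9200 genes did. It was at 183 and 164 CPM in the control libraries and 78.1 and 97.1 CPM in DKO. The groups lay far apart (log2 -1.07 ± 0.15, adjusted p = 0.00556 with edgeR), and Apoe passed under every alternative run for this class. Of the 17 synthesis genes tested, 3 had log2 values above 0, with a median of -0.28, and 5 had an unadjusted p under 0.05 and lower, against 5.09% of all genes. Over all genes tested in NK-like cells, 49.8% were above 0, and 25.5% were higher and 15.1% lower in DKO without overlap. Hmgcs1 was at 25.1, 38.3, 21.8 and 17.5 CPM (log2 -0.79), Fdps at 12.3, 20.8, 8.3 and 4.6 CPM (log2 -1.47) and Msmo1 at 16.7, 23.5, 14 and 13.8 CPM (log2 -0.63). In each, both DKO libraries were below both controls. Pmvk was at 20.1, 27.5, 18.8 and 20.01 CPM (log2 -0.39) and Sc5d at 22.9, 21.7, 24.0 and 16.3 CPM (log2 -0.22), the latter with overlap. Stard4, the sterol transfer gene, was at 36.8, 26.2, 26.2 and 16.3 CPM (log2 -0.63, unadjusted p = 0.0265, adjusted p = 0.455 with edgeR). The regulators were nearer 0 or higher: Srebf1 was at 24.0, 28.4, 31.8 and 39.6 CPM (log2 0.35), Scap at 32.9, 25.7, 24.9 and 27.9 CPM (log2 -0.22) and Srebf2 at 53.5, 48.3, 53.7 and 48.4 CPM (log2 -0.07). Abcg1 was at 45.7, 29.3, 58.9 and 65.9 CPM (log2 0.67) and Mylip at 56.9, 44.2, 51.9 and 90.1 CPM (log2 0.41). Abcg1 did not overlap between groups, and Mylip did. Hmgcs1, Fdps, Msmo1 and Pmvk were all highest in control 2. Cluster 15, led by Gzmf and Gzmg, made up 4.23%, 15.7%, 7.79% and 4.25% of the NK-like cells. The 8 genes of dividing cells summed to 123, 227, 125 and 96.3 CPM there, with 0 of 8 higher in DKO. The part of this mix and of dividing cells in the NK-like values was not tested.

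In T-like cells (1007, 711, 1228 and 717 cells) Apoe again was the 1 member that passed, where 0.0569% of 10540 genes did. It was at 161 and 166 CPM in the control libraries and 82.8 and 95.6 CPM in DKO (log2 -0.95 ± 0.12, adjusted p = 0.027 with edgeR). It did not pass without control 2 (log2 -0.92). With edgeR its adjusted p was 0.28 with a replicate block, 0.0985 without doublet removal and 1.62e-08 without the filter on low counts. It was 0.0184 at Leiden resolution 2.0, 0.0206 under the 5% mitochondrial limit and 6.19e-05 with DESeq2. The crossed pairing, chosen after the data were seen, gave 1.34e-09. The 18 synthesis genes were near 0, with 10 above it and a median of 0.04. Over all genes tested in T-like cells, 50.6% were above 0, and 31.9% were higher and 14.3% lower in DKO without overlap. Pmvk was at 22.2, 26.5, 21.8 and 17.3 CPM (log2 -0.37) and Ebp at 64.1, 69.8, 61.6 and 62.1 CPM (log2 -0.19), both lower in DKO without overlap. Hmgcs1 was at 32.0, 28.8, 37.7 and 34.6 CPM (log2 0.17), higher without overlap, and Cyp51 at 27.3, 22.7, 24.5 and 26.0 CPM (log2 -0.07). The regulators Insig1 (log2 0.28), Srebf1 (0.15), Srebf2 (0.09) and Scap (-0.08) and the genes Npc2 (-0.24) and Soat1 (0.13) did not pass in T-like cells. Mylip was at 31.9, 21.1, 31.5 and 46.7 CPM (log2 0.45), with overlap. In cluster 13, 0.268% of 8942 genes passed, Apoe among them, at 194 and 167 CPM in the control libraries and 76.5 and 113 CPM in DKO (log2 -0.99, adjusted p = 0.0216 with edgeR). Its synthesis genes had a median of -0.05, with 7 of 18 above 0. Over all genes tested in cluster 13, 50.8% were above 0, and 27.5% were higher and 16.9% lower in DKO without overlap. In cluster 13, Ebp was at 83.4, 90.3, 72.5 and 72.1 CPM (log2 -0.32) and Pmvk at 21.2, 22.9, 16.8 and 16.0 CPM (log2 -0.48), both lower in DKO without overlap, and Insig1 at 38.8, 29.4, 50.1 and 48.9 CPM (log2 0.47), higher without overlap. None of these passed, nor did Idi1 (log2 0.18), Hmgcs1 (0.13), Srebf1 (-0.16), Srebf2 (0.11), Scap (0.15), Mylip (0.40) or Npc2 (-0.17). Abcg1 was at 24.1, 19.0, 28.8 and 44.7 CPM (log2 0.70). In cluster 14, 0.029% of 6905 genes and none of the 34 passed. Apoe was there at 180, 202, 88.3 and 133 CPM (log2 -0.82, adjusted p = 0.175 with edgeR), lower in DKO without overlap, as were 16.8% of all genes. DESeq2 also called none of the 34 in cluster 14. There 3 had an unadjusted p under 0.05 with edgeR, as did 10.8% of all genes: Apoe, Insig1 at 35.4, 36.5, 46.6 and 67.9 CPM (log2 0.64) and Pmvk at 41.1, 32.2, 32.1 and 16.5 CPM (log2 -0.77). The log2 values there were 0.57 for Fdft1, 0.55 for Sc5d, 0.30 for Msmo1, 0.12 for Srebf2, 0.07 for Srebf1, 0.02 for Scap, 0.25 for Abcg1, -0.22 for Soat1 and 0.18 for Npc1.

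The Apoe term against monocyte/macrophage-like cells was log2 -0.71 in NK-like cells (edgeR, adjusted p = 0.0100, where 0.158% of 12671 genes passed) and -0.67 in cluster 13 (edgeR, adjusted p = 0.000412, where 0.679% of 12952 passed). It was lost in NK-like cells without DKO 1 (adjusted p = 0.0595 with edgeR) and without DKO 2 (0.108), and ran from 1.69e-05 to 0.0252 in the other alternatives. With edgeR no member passed for T-like cells (0.153% of genes) or cluster 14 (0.174%). For T-like cells the Apoe term was -0.62 (edgeR adjusted p = 0.109), and DESeq2 called it (adjusted p = 0.00896). The lymphocyte level of Apoe was a small share of the monocyte/macrophage level: in NK-like cells 2.96% and 2.96% in the control libraries and 1.89% and 1.79% in DKO, and in T-like cells 2.59%, 2.99%, 2.01% and 1.76%. Macrophage genes showed the same order of groups. In T-like cells the complement gene C1qa was at 1.96%, 2.13%, 1.35% and 1.07% of its monocyte/macrophage level and the lysozyme gene Lyz2 at 1.81%, 2.20%, 1.23% and 1.25%. In NK-like cells C1qa was at 2.24%, 2.27%, 1.52% and 1.08% and Lyz2 at 2.17%, 2.45%, 1.28% and 1.28%. Of the 14 monocyte/macrophage marker genes, 1 had a higher mean in DKO in NK-like cells and 2 in T-like cells, and their summed level was 1751 and 1997 CPM against 1851 and 1479 CPM in NK-like cells and 1918 and 2280 CPM against 2066 and 1873 CPM in T-like cells. The part of monocyte/macrophage RNA in the Apoe values of lymphocytes was not tested. Monocyte/macrophage-like cells were 59.7% and 66.7% of the cells kept in control and 51.2% and 46.7% in DKO.

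**Figure D3:**
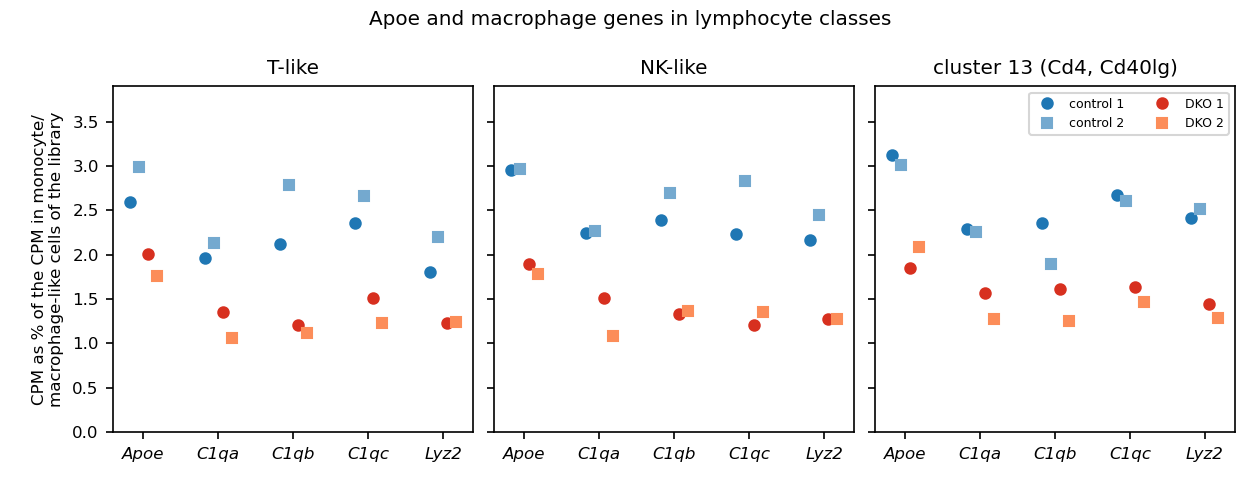
CPM of Apoe and of 4 macrophage genes in T-like cells, NK-like cells and cluster 13, as a percentage of the CPM of the same gene in monocyte/macrophage-like cells of the library (y axis). In every panel and for every gene both DKO libraries (red, orange) lie below both controls (blue), Apoe at 1.76% to 2.09% against 2.59% to 3.13%.

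Neutrophil-like cells (157, 347, 197 and 83 cells) were shallow, with 3503 genes tested, 0.114% of them passing, and 2 of the 18 synthesis genes among those tested. None of the 11 members tested passed with edgeR or DESeq2, and 2 had an unadjusted p under 0.05 with edgeR, Mylip and Soat1, against 9.36% of all genes. Mylip was at 110, 59.0, 144 and 187 CPM (log2 0.87), without overlap. Of all genes tested in this class, 29.9% were higher and 11.5% lower in DKO without overlap. Soat1 was at 208, 225, 156 and 141 CPM (log2 -0.72), lower in both DKO libraries. Srebf2 was at 30.3, 35.7, 58.1 and 62.2 CPM (log2 0.63), higher in both. The log2 values of the others were -0.36 for Sc5d, 0.13 for Ebp, -0.44 for Apoe and -0.53 for Npc1. Cd36 had 5, 53, 0 and 0 UMIs, nearly all of them in control 2, and was not above the filter in this class alone. Its class-by-group term passed with edgeR (0.273% of 12084 genes did), where the filter was applied to both classes together. DESeq2 gave it no adjusted p, and a fold against libraries at 0 is not given.

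A second clustering of the monocyte/macrophage-like cells alone, without the 34 genes among the variable genes, gave 15 states, of which 11 (M0 to M10) had at least 50 cells in each library. As a description, the summed synthesis level was 846 CPM in M10, led by Igf1 and Retnla (662 to 980), and 791 CPM in M9, led by the mitosis genes Top2a and Mki67 (526 to 992). It was lowest in M1, led by the stress genes Mt2 and Hmox1, at 259 CPM (203 to 299), and next in M8, led by Hp and the monocyte gene Ace, at 362 CPM (332 to 421). Levels of Apoe ran from 1428 CPM in M8 (1056 to 1883) to 9766 CPM in M10 (7778 to 11241). Cd36 averaged 121 CPM in M1 (64.8 to 180), next 35.0 CPM in M8 (8.89 to 61.2), and Abca1 588 CPM in M1 (500 to 687) and 57.9 CPM in M8 (56.4 to 60). Among the 11 states, M1 was the lowest in synthesis transcripts and the highest in Abca1 and Cd36.

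Tested within states, 2 values of members passed, Mylip in M1 and Abca1 in M10. All states come from the same 4 libraries and are not independent. In M1, 0.716% of 7406 genes passed. Mylip was there at 17.8 and 18.1 CPM in the control libraries and 43.3 and 46.1 CPM in DKO. It rose by log2 1.30 ± 0.28 (edgeR, adjusted p = 0.0473), but did not pass without control 2 (log2 1.31) or without DKO 2 (log2 1.28). With edgeR the adjusted p was 0.00655 without the filter on low counts and 0.0125 with a replicate block. The crossed pairing, chosen after the data were seen, gave 0.000702. DESeq2 gave Mylip no adjusted p there (log2 1.31, unadjusted p = 0.0055) and called Apoe. Lpl, the lipoprotein lipase, also passed in M1 at 4.2, 2.5, 21.6 and 73.1 CPM (log2 3.97, edgeR adjusted p = 0.0258), with the 2 DKO libraries far from each other. Apoe was at 5490, 6473, 3515 and 3171 CPM in M1 (log2 -0.85, edgeR adjusted p = 0.0597, DESeq2 adjusted p = 0.0127). Abcg1 was at 102, 69.5, 119 and 134 CPM in M1 (log2 0.59), without overlap.

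In M10, 1.59% of 10547 genes passed. Abca1 was there at 331 and 313 CPM in the control libraries and 194 and 244 CPM in DKO, below both controls. It fell by 0.57 ± 0.14 on the log2 scale (edgeR, adjusted p = 0.0316). The adjusted p ran from 0.00171 to 0.182 when a library was left out and was 0.0502 with DESeq2, 0.0717 with a replicate block and 0.0141 without the filter. Pltp fell with it in M10, at 220 and 274 CPM in the control libraries and 100.4 and 122 CPM in DKO (log2 -1.16, edgeR adjusted p = 1.5e-05). Pltp also fell in M9 at 112, 121, 67.3 and 52.9 CPM (log2 -0.96, edgeR adjusted p = 0.0165), where 0.497% of 10470 genes passed. Of the synthesis genes in M10, 17 of 18 had log2 values above 0 (median 0.32), 7 had an unadjusted p under 0.05 and higher against 4.48% of all genes, and 13 did not overlap against 20.7%. Msmo1 was at 94.1, 71.0, 111 and 130 CPM (log2 0.49, edgeR adjusted p = 0.0967) and Hmgcs1 at 117, 89.7, 136 and 150 CPM (log2 0.43). Both were highest in DKO 2 and lowest in control 2.

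The other states divided by the sign of the synthesis genes. In M9, 17 of 18 had log2 values above 0 (median 0.53), 11 had an unadjusted p under 0.05 and higher (4.16% of all genes) and 15 did not overlap (20.4%). Hmgcs1 was there at 97.6, 54.3, 115 and 135 CPM (log2 0.67), Msmo1 at 71.2, 40.9, 88.9 and 101 CPM (log2 0.71) and Fdps at 56.1, 50.2, 72.6 and 77.5 CPM (log2 0.47). In M2, led by Pf4 and Folr2, the median was 0.63 with 17 of 18 above 0, 8 with an unadjusted p under 0.05 (3.73% of all) and 11 without overlap (19% of all), while no gene passed with edgeR (0% of 10161). DESeq2 called 26 genes in M2, of the 34 only Apoe (adjusted p = 0.0344). Hmgcs1 was at 67.9, 43.7, 91.9 and 111 CPM there (log2 0.85, edgeR adjusted p = 0.33) and Sqle at 24.3, 12.4, 27.8 and 43.1 CPM (log2 0.95). In M4, led by the interferon genes Rsad2 and Ifit1, the median was 0.53 with 17 of 18 above 0, and 5 had an unadjusted p under 0.05 and higher, against 3.84%. The 8 genes of dividing cells summed to 52.5, 45.4, 64.1 and 36.0 CPM in M2 and to 2644, 2154, 2221 and 2607 CPM in M9, and their part in these values was not tested.

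In M5 and M8 the sign was the opposite. In M5, led by Dmkn and Vcan and with Ly6c2, a monocyte marker, 4 of the 15 synthesis genes tested were above 0, with a median of -0.36, and 5 had an unadjusted p under 0.05 and lower, against 4.53% of all genes (0.0984% of 8132 passed). Fdps was at 34.9 and 57.9 CPM in the control libraries and 17.0 and 13.9 CPM in DKO (log2 -1.71, edgeR adjusted p = 0.121), and Cyp51 at 68.8, 55.5, 43.9 and 31.6 CPM (log2 -0.78). Both were lower in both DKO libraries. In M8, 2 of 13 were above 0, with a median of -0.22, and 2 had an unadjusted p under 0.05 and lower, against 8.28% (0.307% of 7814 passed). Fdps was at 16.9, 35.9, 12.4 and 8.4 CPM (log2 -1.43) and Msmo1 at 51.9, 42.4, 29.3 and 38.9 CPM (log2 -0.52). State-by-group terms against M2, chosen after these values were seen, passed for Fdps in M5 (log2 -2.13 ± 0.35, edgeR adjusted p = 0.0178, where 0.0508% of 9836 genes passed) and for Msmo1 in M8 (log2 -1.40 ± 0.26, edgeR adjusted p = 0.0366, where 0.206% of 9710 passed). Fdps in M8 had -1.86 (edgeR, adjusted p = 0.102). Among the states tested, M2 had the highest synthesis median and M5 and M8 the lowest. The adjusted p-values cover the genes of a pair of states and not the choice of the pairs.

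The other 5 states had synthesis medians of 0.19 in M0, led by Cdh1 and Ccl24 (12 of 18 above 0), 0.26 in M3, led by Apol7c and Mmp13 (15 of 18), 0.18 in M6, led by H2-Eb1 and Ocstamp (14 of 18), 0.06 in M7, with Nos2 and Cxcl9 (11 of 18), and -0.17 in M1 (5 of 12). With edgeR none of the 34 genes passed in M0 (0.0711% of genes), M3 (0.131%), M4 (0.285%), M6 (0.509%) or M7 (0%), nor with DESeq2, which called 4 genes in all in M7. Unadjusted p was under 0.05 for 6 of the 34 in M0 (9.5% of all genes), 4 in M3 (7.38%), 7 in M4 (8.06%), 5 in M6 (9.82%) and 5 in M7 (7.29%).

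**Figure D4:**
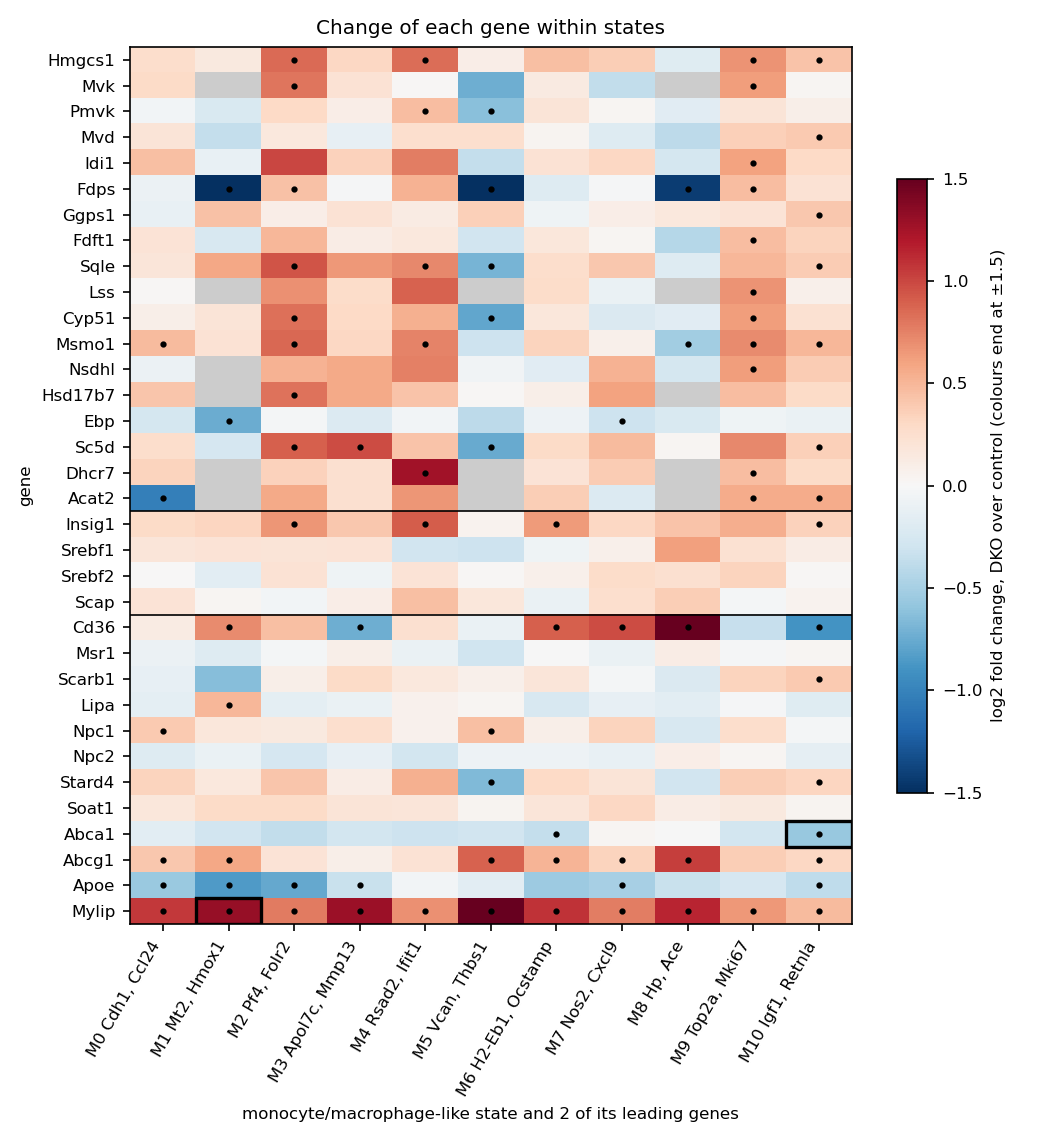
Log2 change (DKO over control, colour) of each of the 34 genes (rows) in each of 11 monocyte/macrophage-like states (columns). Dots mark an unadjusted p under 0.05, boxes an adjusted p under 0.05 (Mylip in M1, Abca1 in M10) and grey genes not tested, and the Mylip row is red in all 11 states while the synthesis rows are mostly red in M2, M4, M9 and M10 and mostly blue in M5 and M8.

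Across the 11 states the LXR targets again lay on both sides of 0. The states share the same 4 libraries. Over all genes and states together 50.4% of values were above 0, 4.9% had an unadjusted p under 0.05 and higher, and 21.7% were higher and 18.1% lower in DKO without overlap. Mylip had a log2 value above 0 in 11 of 11, with a median of 1.07 (0.48 to 1.6), an unadjusted p under 0.05 in 11, and no overlap between groups in 11. In M5, for example, it was at 17.2, 12, 51.9 and 38.5 CPM (log2 1.6, edgeR adjusted p = 0.0654), and in M2 at 37.4, 29.9, 56.9 and 59.2 CPM (log2 0.77). Abcg1 was above 0 in 11 of 11 (median 0.36), without overlap in 9. It was at 53.2, 63.2, 95.8 and 130 CPM in M5 (log2 0.88, edgeR adjusted p = 0.175) and at 54.1, 40.7, 123 and 73.7 CPM in M8 (log2 1.04, edgeR adjusted p = 0.0799). Apoe was below 0 in 11 of 11 (median -0.38), without overlap in 6, and in M2 was at 8438, 9825, 5724 and 5239 CPM (log2 -0.76). Abca1 was below 0 in 10 of 11 (median -0.29), without overlap in 6 of those, and in M2 was at 433, 428, 302 and 380 CPM (log2 -0.37). Insig1 and Soat1 were above 0 in 11 of 11 and Ebp below 0 in 11 of 11. Fdps was above 0 in 4 states and below in 7, from -1.71 to 0.53.

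**Figure D5:**
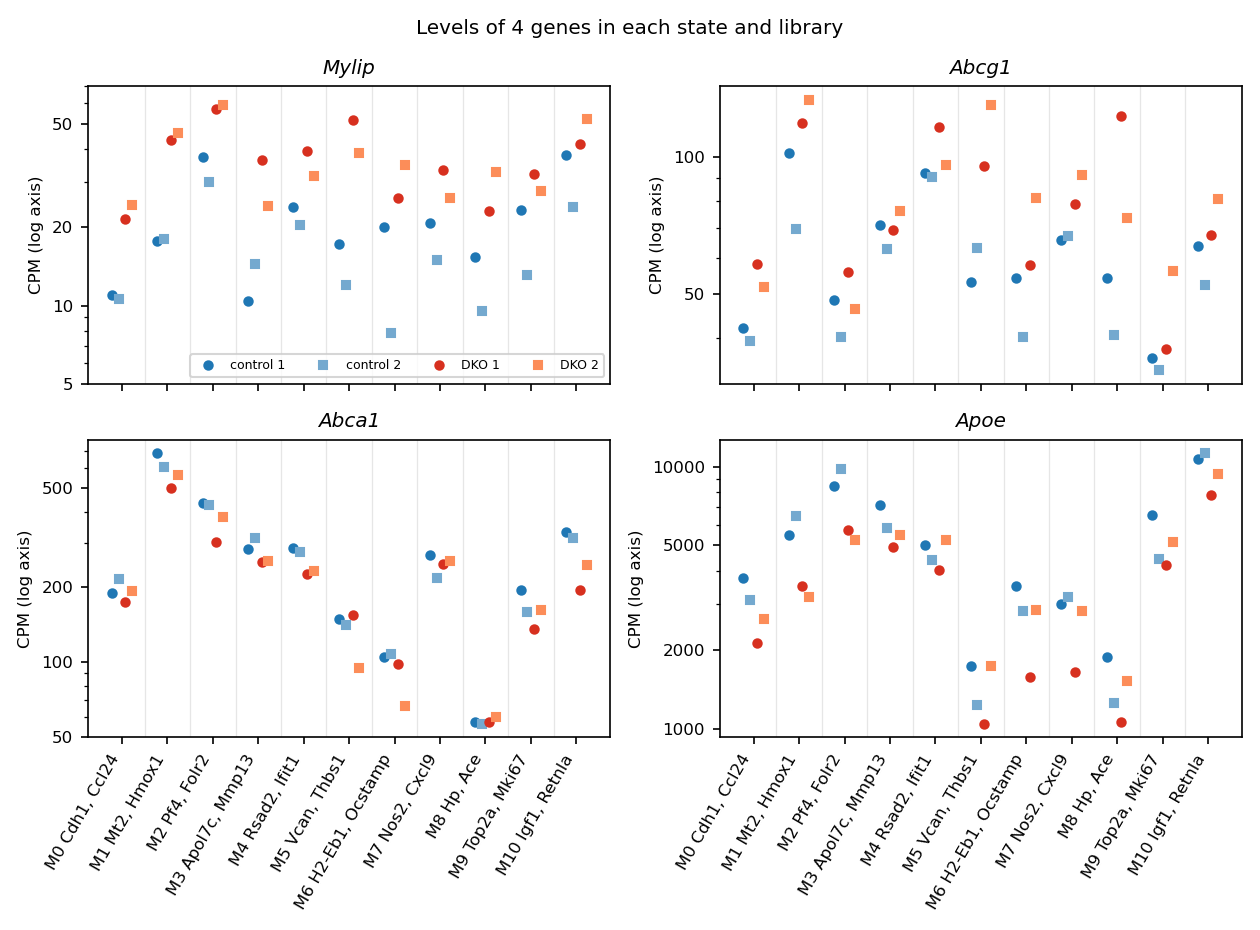
CPM (log axes) of Mylip, Abcg1, Abca1 and Apoe in each library in 11 monocyte/macrophage-like states. Both DKO libraries (red, orange) lie above both controls (blue) in 11 states for Mylip and in 9 for Abcg1, and below them in 6 for Abca1 and in 6 for Apoe.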

How the data were processed

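Per the labels' protocols, tumours were digested with collagenase B and DNase I, live CD45+ cells were sorted by flow cytometry, and 10x v3 libraries were sequenced on a NovaSeq. The authors deposited UMI counts per gene and barcode, made with Cell Ranger per the submitters' processing notes, which also name Seurat 3.1.0, R 3.6.0, and the builds mm10 and GRCh38. All features are mouse genes. The deposited barcodes have at least 500 UMIs, so empty droplets were not used here and no correction for free RNA was made. The groups came from the sample titles.

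Cells needed at least 200 genes, 500 UMIs and at most 10% mitochondrial UMIs, which removed 930, 663, 636 and 570 barcodes (control 1, control 2, DKO 1, DKO 2). Scrublet marked 678, 601, 415 and 236 doublets (0.8% per 1000 barcodes), and 25880 of 30504 cells stayed. Cells were clustered without integration (scanpy 1.11.5, 2000 variable genes, 30 components, 20 neighbours, Leiden resolution 1.0) into 26 clusters, which were named from fixed markers. A cluster stayed unnamed if too few markers of any class were detected, or if another class had more markers among its 10 leading genes. A shallow cluster with no marker of its class there also stayed unnamed. Clusters 13 and 14 stayed unnamed although Cd3e was in 84.67% and 76.34% of their cells, and the T-like class leaves them out. The 10 T cell markers summed to 6364 to 7412 CPM in cluster 13, 6014 to 6741 CPM in cluster 14 and 5014 to 6430 CPM in T-like cells. Names rest on this rebuilt clustering. UMIs of a class were added up within each library and tested with edgeR 4.0.16 (TMM, filterByExpr, robust quasi-likelihood test) in R 4.3.3, with p-values adjusted over all genes tested. Alternatives were DESeq2 1.42.0, no filter, each library left out, a replicate block, other cell filters and clusterings, and an equal mix of states with limma 3.58.1 on log2(CPM + 0.5). On simulated counts for the monocyte/macrophage-like class (12865 genes), the test recovered 74 of 100 genes changed 2-fold and 91 of 98 changed 4-fold, with 2 false calls. The cut set by adjusted p-values depends on how many genes change, and in the data 1 of 13023 genes passed in this class. The simulated shares therefore do not give the share of real changes that the test would find here.

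The 34 genes, the other pathway lists and the tests were chosen with earlier results of these data known. In monocyte/macrophage-like cells all 34 genes are given. Elsewhere the rule named a gene if it passed, or if it was among the 4 smallest unadjusted p-values of its group (3 for other pathway lists) at 20 CPM or more in the higher group. All such genes of the 34 are given in the classes. For the states and the other pathway lists all genes that passed are given, and of the rest a part, chosen after their values were seen. Hmgcs1, Pmvk, Cyp51 and Cd36 in dendritic-like cells, Cd36 in neutrophil-like cells, Fdps in NK-like cells, and genes given again for a comparison across classes or states were added after their values were seen. Positions are from GENCODE vM21 on GRCm38. Reads are counted near the 3′ end, so levels are not compared between genes. Same-numbered libraries did not deviate together (correlation from -0.24 to -0.11 over the 7 classes), so the numbers were not taken as pairs.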

Additional observations from a re-analysis of the deposited data

Results flagged for a closer look

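The results given here, 6 in number, differed between classes of cells by a test of the difference itself, the class-by-group term of edgeR with each library as a block. Groups of 2 libraries are too small to look for a library that stands apart within its group. Each value is the log2 change (DKO over control) in the first class minus that in monocyte/macrophage-like cells of the same libraries. In dendritic-like cells the term was -1.15 for Hmgcs1, which passed in all 7 alternatives run. It was -1.19 for Fdps, which did not pass in 1 of the 7, -1.1 for Mvd, which did not in 3, and -0.807 for Cyp51, which did not in 4. For these 4 genes the changes in the classes compared had opposite signs. For Apoe the term was -0.709 in NK-like cells, which did not pass in 2 alternatives, and -0.673 in cluster 13, which passed in all that could change it. The run with the Cd209a-led cluster alone swaps only dendritic-like cells, so it could not change the Apoe terms and is not counted for them. The Apoe log2 value was below 0 in both of the classes compared and lower in the lymphocytes.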

How the results depend on the processing

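Counts of the 34 genes passing are given for each class against the value reported, and the cause of a difference was not tested. Without the filter on low counts 3 genes passed in NK-like cells (1 reported), 2 in T-like cells (1), 3 in dendritic-like cells (0) and 1 each in monocyte/macrophage-like cells, neutrophil-like cells and cluster 14 (0 in each). Over all genes, 120 of 14551, 247 of 16244, 116 of 15275, 48 of 18936, 43 of 11663 and 35 of 13398 passed there, in this order. DESeq2 called 1 in dendritic-like cells (11 of 9816 over all genes) and 1 in monocyte/macrophage-like cells (156 of 13023). In T-like cells 0 passed with the replicate block (1 of 10540 over all genes) and 0 without doublet removal (21 of 11082). Within the states, where 2 values passed, 38 did without the filter, 14 with the replicate block and 1 with the 34 genes kept among the variable genes. Over all genes, 99 (M7) to 289 (M8) passed per state without the filter and 12 (M7) to 203 (M10) with the replicate block. Of the class-by-group terms 7 passed, and 20 did without the filter, where 16 (cluster 14) to 163 (T-like cells) passed per class over all genes. With 1 library left out, calls over all genes also rose in each class where calls among the 34 were most. Within states without control 1 they rose in all but M3. For the terms without DKO 1 they rose in dendritic-like, T-like and neutrophil-like cells and fell in the other classes. The counts of the 34 in such runs are therefore not a result about these genes alone. In each run the lone library of a group is assumed to vary like the other group. The counts then ran from 0 to 11 in monocyte/macrophage-like cells (11 without control 1), 0 to 5 in dendritic-like cells (5 without DKO 1), 1 to 5 in NK-like cells (5 without control 1), 0 to 4 in T-like cells (0 without control 2, 4 without DKO 1), 1 to 2 in cluster 13, 0 to 1 in cluster 14 and neutrophil-like cells, 1 to 38 within states (38 without control 1, 1 without control 2) and 3 to 17 for the terms (3 without control 2, 17 without DKO 1).

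The replicate numbers of control and DKO are only names, since libraries of the same number did not deviate together. A crossed pairing, chosen after seeing the data like the runs without state M14 and with the unnamed cluster of low UMI counts, gave counts of 5 in NK-like cells, 4 in T-like cells, 2 in cluster 13, 1 in cluster 14, 8 in dendritic-like cells and 37 within states. Over all genes that pairing called 468 of 9200, 835 of 10540, 743 of 8942, 198 of 6905 and 323 of 9816 in these classes. Per state it called 21 (M7) to 503 (M1). The synthesis median in monocyte/macrophage-like cells stayed above 0 in every alternative. Signs turned for Fabp5 (log2 -0.58 in dendritic-like cells), which was at log2 0.013 in the Cd209a-led dendritic-like cluster alone, and for Pltp, at -0.24 in the Ccr7-led cluster alone. With an equal mix of states Msr1 was at 0.0095 and Lipa at -0.065 in monocyte/macrophage-like cells. With a library left out, Srebf2 ran from -0.038 to 0.30, Msr1 from -0.11 to 0.059 and Npc2 from -0.26 to 0.062 there. Clusters 13 and 14 have no value at Leiden resolution 2.0 or under the 5% mitochondrial limit. Depth limits the neutrophil-like cells, where few synthesis genes could be tested.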
